A study of Mus musculus with 3 samples.

Results

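The AP-1 family comprised 10 genes of the 20308 in the deposited table, taken by symbol: the Fos subfamily (Fos, Fosb, Fosl1, Fosl2), the Jun subfamily (Jun, Junb, Jund), and the related factors Atf3, Batf and Maff. Satellite cells, the stem cells that repair skeletal muscle, were profiled by RNA sequencing in Pax7-ZsGreen mice aged 3 months, in which the green protein ZsGreen reports activity of the satellite cell gene Pax7. Muscle of several animals was digested with collagenase and dispase, and cells with ZsGreen were sorted, some 200000 for each sample. The 3 libraries formed 1 group, with no second condition and no undigested sample. One label gives the tibialis anterior as the source, and the design text gives hindlimb muscles. Values are TPM, transcript shares corrected for length and scaled to a common total, so levels of different genes can be compared, whereas less RNA per cell and fewer expressing cells cannot be told apart. Read totals are not kept, so depth is unknown. Whether separate animals stand behind each library is not stated, so p-values reflect variation among these samples alone, possibly technical.

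AP-1 is a pair of basic leucine zipper (bZIP) proteins that bind DNA together. Jun proteins pair with each other or with Fos proteins, whereas Fos proteins need a Jun partner. Fos, Fosb, Jun, Junb and Atf3 are immediate-early genes: transcription starts within minutes of a growth signal or stress, without new protein synthesis, and their mRNAs are short-lived. In satellite cells AP-1 transcripts are known to rise when muscle is dissociated, and AP-1 factors are also linked to exit from quiescence after injury.

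Many immediate-early genes are switched on through cAMP response elements, which bind CREB and ATF proteins, close to the transcription start. The 120 bases before the RefSeq start (GRCm38.p6, 5′ to 3′) are shown for the immediate-early members and for Maff, all abundant here. They lie at chr12:85473770-85473889 on the plus strand (Fos), chr7:19310046-19310165 on the minus strand (Fosb), chr4:95052223-95052342 on the minus strand (Jun), chr8:84978749-84978868 on the minus strand (Junb), chr1:191183334-191183453 on the minus strand (Atf3) and chr15:79347400-79347519 on the plus strand (the second of the 3 Maff starts in the table). Capitals mark the element's core TGACG, which reads CGTCA where it lies on the other strand, the full element TGACGTCA, the site TGACATCA and the TATA box TATAAA.
Fos: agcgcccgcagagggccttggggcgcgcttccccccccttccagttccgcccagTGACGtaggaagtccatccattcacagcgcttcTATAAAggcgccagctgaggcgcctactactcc
Fosb: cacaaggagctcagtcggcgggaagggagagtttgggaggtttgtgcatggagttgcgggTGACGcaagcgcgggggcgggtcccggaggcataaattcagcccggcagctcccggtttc
Jun: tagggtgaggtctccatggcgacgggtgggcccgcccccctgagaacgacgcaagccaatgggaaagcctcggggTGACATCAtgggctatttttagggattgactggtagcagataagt
Junb: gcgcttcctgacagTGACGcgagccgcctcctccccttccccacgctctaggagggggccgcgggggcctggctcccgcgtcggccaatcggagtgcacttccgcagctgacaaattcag
Atf3: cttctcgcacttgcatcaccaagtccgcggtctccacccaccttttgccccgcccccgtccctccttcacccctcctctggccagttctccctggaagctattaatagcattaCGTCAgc
Maff: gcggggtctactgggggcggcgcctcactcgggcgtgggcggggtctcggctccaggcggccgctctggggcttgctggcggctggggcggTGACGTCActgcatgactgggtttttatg

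Promoters of 9 members were in the RefSeq table, and Fosl1 had no entry. Over the 250 bases before the start and on both strands, TGACG was found in 6 of the 9 (Atf3, Batf, Fos, Fosb, Junb and Maff) and in 19.8% of all 27025 genes, counting a gene once where any of its starts had a match; Maff had 3 starts, so the 9 members had 11 windows. G and C made up 58.4% to 68.8% of the bases in 8 of these windows. In Jund, Batf and the first Maff start they made up 46.4% to 48%, against a median of 52.4% over all promoters. The shares are not adjusted for this. Windows follow RefSeq starts, and those of Fos, Jun and Maff (the one ending at 79346620) adjoined the GENCODE M21 gene start. The Jund window ended at 70697738, before its gene start at 70698949, and the Junb window also stopped short. The Atf3 window (191183334 to 191183583, minus strand) lay inside the gene, which begins at 191218039. The Fosl2 window (32136222 to 32136471) lay inside its gene, which starts at 32135801. The Maff windows beginning at 79347270 and 79348152 also lay inside the gene. The Batf and Fosb windows spanned the gene start. Starts of single transcripts were not compared. In Fos, TGACG began 66 and 129 bases before the start and in Fosb 60 bases before it. The full element TGACGTCA, which contains TGACG, was found in Maff alone and in 1.77% of all genes. TGACATCA began 45 bases before the start in Jun and also before the third Maff start, and it was in 3.41% of genes. TATAAA was found in Fos alone, 33 bases before the start, and in 14.3% of genes. The AP-1 site TGANTCA (7.82% of genes) and the CArG box bound by SRF (1.62%) were in none of the 11 windows. Bases outside these windows, such as those farther upstream, were not searched, so sites there are not excluded. Batf, listed at 0 in all libraries, holds TGACG as do 5 abundant members, so these letters did not set it apart. The motifs were chosen after the levels and the sequences had been seen.

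Of the 10 members, 9 were abundant in every library and 1, Batf, was listed at 0. All 9 were called above 100 TPM, where 9.54% of the 12822 genes tested were called (limma's moderated test on log2(TPM + 0.1), Benjamini-Hochberg over all genes tested). They were also above 1 TPM, as were 60.8% of the genes tested. The median of the mean levels was 552 TPM over the 10 members and 11.5 TPM over all genes tested. A gene entered the test when at least 1 library was above 0, so Batf was not tested.

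**Figure D1:**
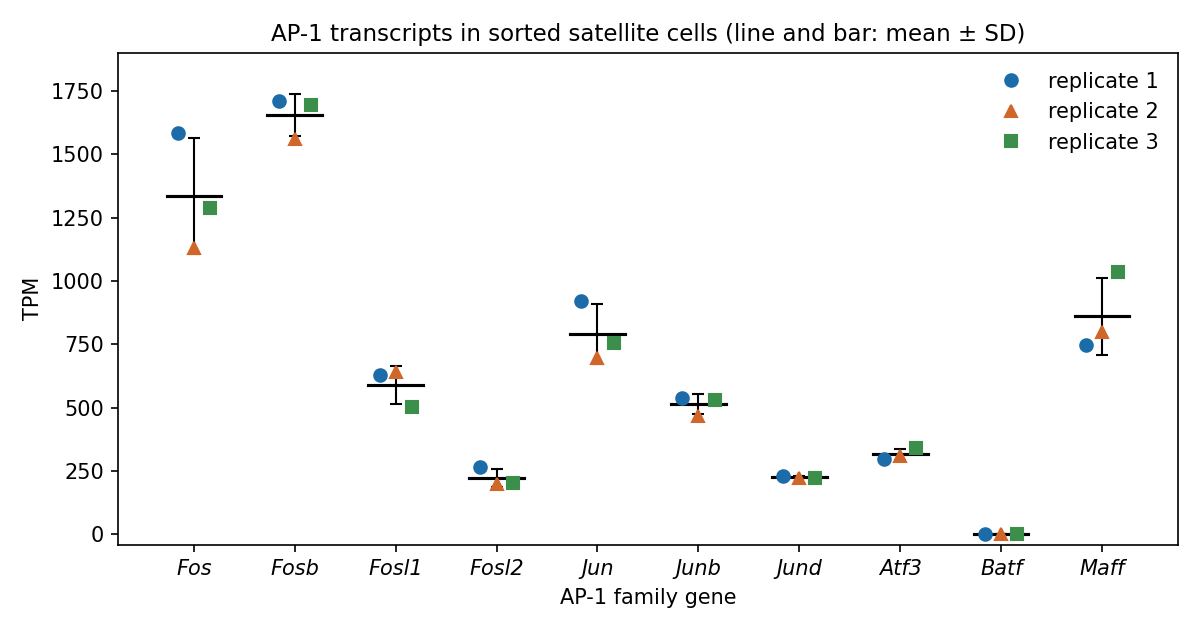
TPM of each AP-1 gene (horizontal axis) in replicates 1 (circle), 2 (triangle) and 3 (square); the line and bar give mean ± SD (n = 3). Fosb and Fos lie highest, at 1132 to 1711 TPM, and Batf lies at 0 in all 3 libraries.

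**Figure D2:**
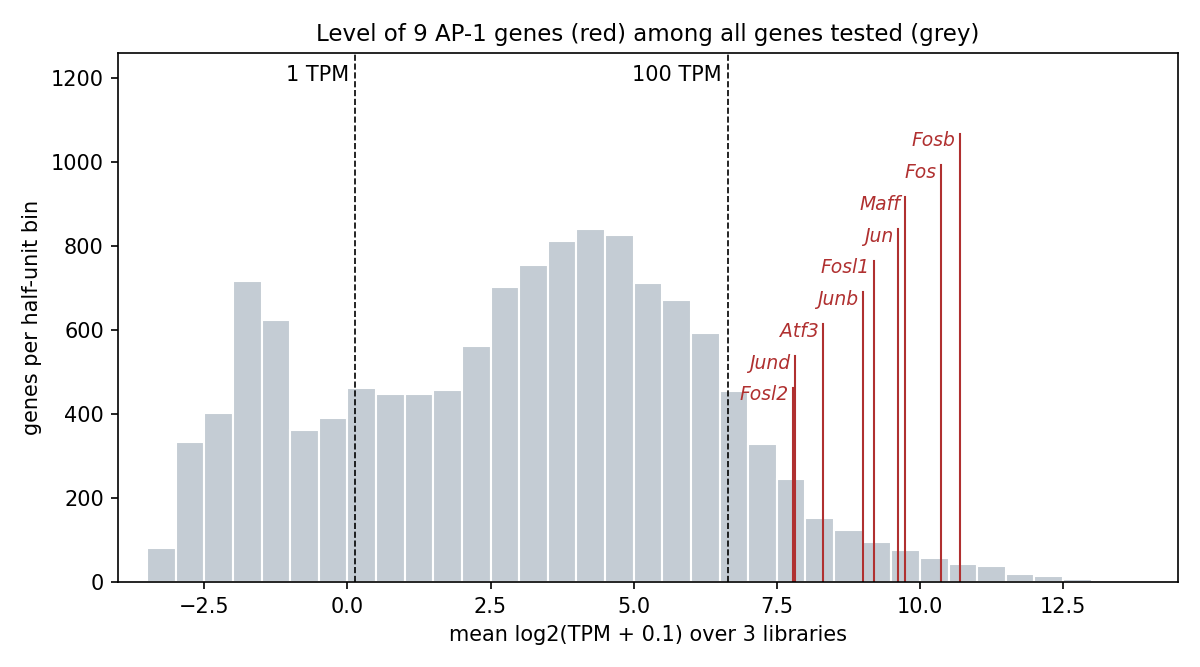
Histogram of mean log2(TPM + 0.1) over the 3 libraries for the 12822 genes tested (grey), with the 9 AP-1 genes above 0 as red lines and 1 and 100 TPM as dashed lines. All 9 lie right of 100 TPM, in the upper tail.

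The Fos subfamily supplied the highest members. Fosb, which encodes FosB and the truncated ΔFosB (one gene value covers both), had 1711, 1561 and 1693 TPM in replicates 1, 2 and 3. Its mean of 1655 ± 82.1 TPM (SD, n = 3) placed it at rank 102 of all genes in the table. Fos, the prototype serum-induced gene (chromosome 12, 85473890 to 85477273 of GRCm38), had 1583, 1132 and 1290 TPM. Its mean was 1335 ± 229 TPM (rank 127), with replicate 1 the highest library. These levels were 16.5-fold (Fosb, adjusted p = 5.76e-10) and 13.2-fold (Fos, adjusted p = 4.54e-09) above 100 TPM by limma. The p-values lean on the variance trend over all genes. Without it, limma gave adjusted p = 0.00476 for Fosb and 0.00507 for Fos.

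Fosl1 and Fosl2 encode FRA1 and FRA2, Fos proteins that lack the strong activation domain of FOS and FOSB and usually follow them in time. Fosl1 had 628, 641 and 504 TPM, a mean of 591 ± 75.5 TPM. Fosl2 had 265, 200 and 203 TPM, a mean of 222 ± 36.5 TPM and the lowest of the 9. Fosl2 was below Fosl1 in 3 of 3 libraries, by a log2 ratio of -1.41 ± 0.234, or 2.66-fold lower. It was also 5.99-fold lower than Fos in 3 of 3 libraries (log2 ratio -2.58 ± 0.085).

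In the Jun subfamily, Jun stood above Junb and Junb above Jund in every library. Jun (chromosome 4, 95049034 to 95052222), the main activating partner of Fos proteins, had 923, 697 and 755 TPM, a mean of 792 ± 117 TPM. Junb, a weaker activator that can restrain Jun, had 540, 469 and 532 TPM, a mean of 514 ± 38.8 TPM. Jund, which is expressed in many resting cells and is least dependent on stimulation, had 230, 224 and 224 TPM, a mean of 226 ± 3.35 TPM. Its libraries differed by 1.03-fold between highest and lowest, the smallest range of the 9. The log2 ratio was -0.62 ± 0.14 for Junb over Jun, -1.80 ± 0.189 for Jund over Jun and 1.18 ± 0.101 for Junb over Jund.

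Atf3, a stress-induced member of the ATF/CREB group that forms dimers with Jun proteins, had 300, 310 and 341 TPM, a mean of 317 ± 21.4 TPM. It exceeded its close relative Jdp2, a repressor of AP-1 sites at 94.7, 60.4 and 49.8 TPM, 4.80-fold (log2 ratio 2.26 ± 0.561, 3 of 3 libraries). Batf, a Jun partner known from lymphocytes and dendritic cells, was listed at 0 in all 3 libraries, as were Batf2 and Batf3. A value of 0 in this table can be a failed estimate, since the ribosomal protein gene Rps27 is also listed at 0 in all 3. No ratio was formed for Batf over Batf3.

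Maff encodes a small MAF protein, a bZIP factor without an activation domain that forms dimers with itself or with cap'n'collar (CNC) factors such as NRF2. It had 749, 799 and 1034 TPM, a mean of 861 ± 152 TPM, with replicate 3 the highest. Its paralogue Mafk had 700, 717 and 945 TPM, also with replicate 3 the highest. Maff over Mafk was therefore nearly constant, with log2 ratios of 0.10, 0.16 and 0.13 (1.09-fold on average). The other small MAF gene, Mafg, had 135, 165 and 160 TPM, and Maff exceeded it 5.58-fold (log2 ratio 2.48 ± 0.207).

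Between the subfamilies, Fos exceeded Jun 1.68-fold, with log2 ratios of 0.78, 0.70 and 0.77 in replicates 1 to 3. Fos and Jun both were highest in replicate 1 and lowest in replicate 2, and their ratio spread by 0.043 (SD of log2), against 0.244 for Fos and 0.209 for Jun alone. Fosb exceeded Jun 2.10-fold, and Fosb exceeded Fos 1.25-fold (log2 ratio 0.32 ± 0.185). In all, 12 of the 13 listed pairs could be compared, and each had 1 direction in 3 of 3 libraries. Each gave an exact two-sided sign-flip permutation p of 0.25, the smallest that 3 libraries allow, and 0.25 after Benjamini-Hochberg adjustment over the 12, so no pair could pass 0.05.

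**Figure D3:**
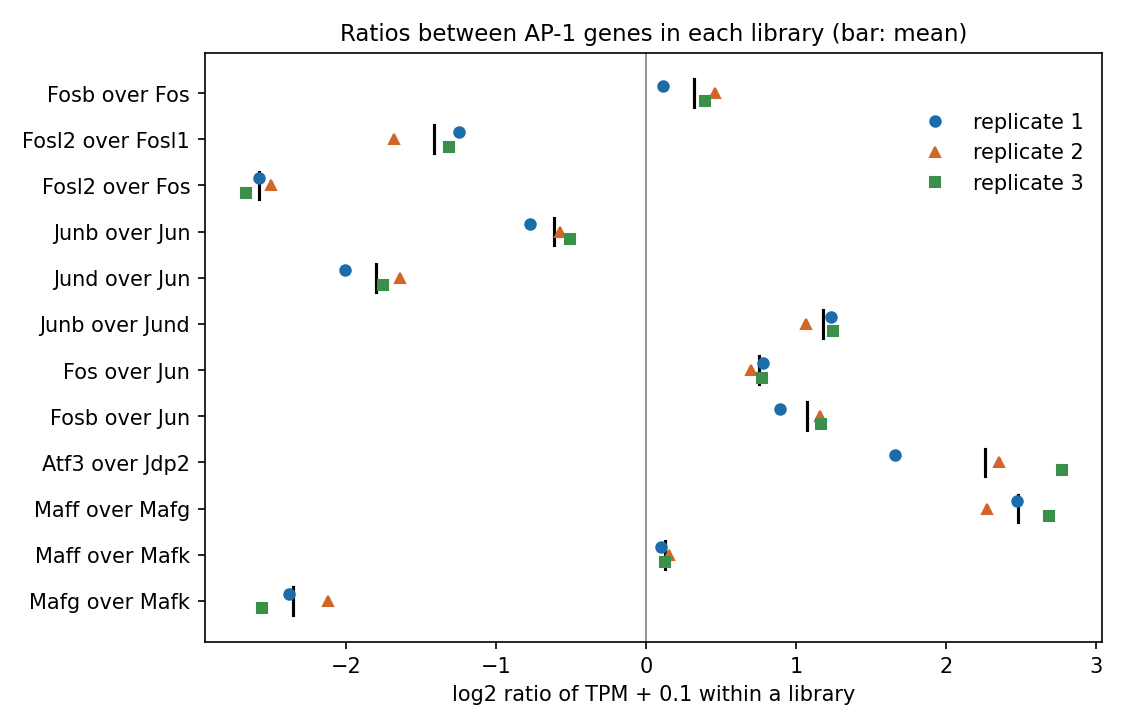
Log2 ratio of TPM + 0.1 within each library (horizontal axis) for 12 gene pairs (rows), with replicates 1, 2 and 3 as circle, triangle and square and the mean as a bar. Maff over Mafk (0.10 to 0.16) and Fos over Jun (0.70 to 0.78) have the tightest points, and Atf3 over Jdp2 (1.66 to 2.77) the widest.

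In order of mean level the members were Fosb, Fos, Maff, Jun, Fosl1, Junb, Atf3, Jund, Fosl2 and Batf. Library ranges overlapped for 4 of the 9 neighbouring pairs. Fosb and Fos overlapped (lowest Fosb 1561 TPM, highest Fos 1583 TPM), although Fosb was higher in each library. Maff and Jun, Fosl1 and Junb, and Jund and Fosl2 overlapped too, and in each of these the first exceeded the second in 2 of 3 libraries. The ranges of the other neighbours were separate, among them Jun over Fosl1 (lowest Jun 697 TPM, highest Fosl1 641 TPM) and Fos over Maff (lowest Fos 1132 TPM, highest Maff 1034 TPM).

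Summed over the 10 members, AP-1 transcripts came to 6928, 6033 and 6576 TPM in replicates 1 to 3, a mean of 6512 ± 451 TPM or 0.651% of all TPM. Fosb, Fos, Maff and Jun held 71.7%, 69.4% and 72.6% of that sum. The Fos subfamily summed to 4186, 3535 and 3690 TPM, against 1692, 1390 and 1511 TPM for the Jun subfamily. The Fos subfamily sum was 2.47, 2.54 and 2.44 times the Jun subfamily sum.

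With all 3 libraries, the 9 members above 0 varied between libraries about as much as other abundant genes. Their median SD of log2(TPM + 0.1) was 0.192, against 0.170 over the 1545 genes of at least 100 TPM on average and 0.598 over the 11318 genes of at least 1 TPM. Jund (0.021), Fosb (0.073) and Atf3 (0.096) spread least, and Maff (0.246), Fos (0.244) and Fosl2 (0.228) spread most. Of the 9, 6 were highest in replicate 1 (Fos, Fosb, Fosl2, Jun, Junb and Jund), Fosl1 was highest in replicate 2, and Atf3 and Maff were highest in replicate 3. The median SD of the 9 was 0.0968 without replicate 1 and 0.0939 without replicate 3. The medians over other genes were not recomputed this way, so these values have no like comparison.

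**Figure D4:**
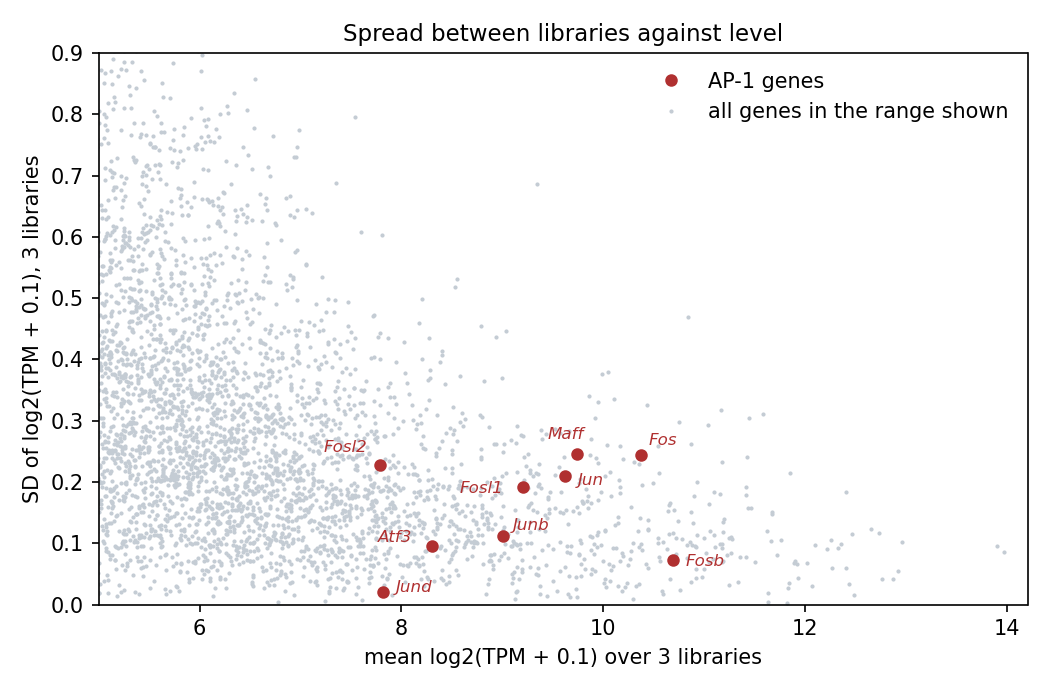
SD of log2(TPM + 0.1) over the 3 libraries (vertical axis) against mean log2(TPM + 0.1) (horizontal axis) for the 9 AP-1 genes above 0 (red) and for other genes within the axes shown (grey). The 9 lie between 0.021 (Jund) and 0.246 (Maff), within the cloud of genes of like level.

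The rest of the AP-1 pathway stood lower in most of its parts, each read against the background of 9.54% of genes tested above 100 TPM and 85.1% below it. Of 11 other AP-1 superfamily bZIP genes, 10 were in the table. Mafk (788 ± 137 TPM) and Mafg (153 ± 16.3 TPM) were above 100 TPM, 5 were below it and 3 were listed at 0, with a median of 26.8 TPM. Jdp2, at 68.3 ± 23.4 TPM, was the third highest. Mafg was no longer called without the variance trend (limma adjusted p = 0.0626), and neither was Jdp2 below 100 TPM (adjusted p = 0.134), which was also not called without replicate 3 (adjusted p = 0.0529).

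Of 14 genes of MAP kinases, which phosphorylate Jun, Fos and their activators, and of the MAP kinase kinases that act on them, 1 was above 100 TPM, 8 were below it, 2 were not called and 3 (Mapk10, Mapk11 and Mapk13) were listed at 0. The ERK-activating kinase Map2k1 had 232, 210 and 249 TPM and was the one above. Map2k2, which encodes a second ERK-activating kinase, averaged 83.1 ± 11.2 TPM and was not called. The JNK gene Mapk8, which encodes the kinase named for Jun, averaged 37.6 ± 1.68 TPM. Among 10 activators of Fos and Jun transcription, 1 was above 100 TPM, 6 were below it and 3 were not called. The one above was the CREB-related Atf1, at 219 ± 28.0 TPM, followed by Mef2d at 118 ± 7.93 TPM and the SRF partner Elk4 at 109 ± 3.31 TPM. Mef2a, one of those not called, was below 100 TPM without replicate 3 (limma adjusted p = 0.0172). Srf itself averaged 32.2 ± 4.40 TPM and Creb1 17.2 ± 6.57 TPM.

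Genes that restrain AP-1 had, of the 6 pathway lists, the median closest to that of the family, at 456 TPM, with 4 of 7 above 100 TPM and 3 below. Zfp36 (tristetraprolin), which destabilises AU-rich mRNAs, had 1494, 1296 and 1744 TPM. Its relatives Zfp36l1 and Zfp36l2 averaged 704 ± 84.5 and 555 ± 38.3 TPM. Dusp1, a phosphatase that switches off MAP kinases, averaged 456 ± 5.21 TPM. Fbxw7, the ubiquitin ligase subunit that directs Jun to degradation, had 7.43, 17.2 and 30 TPM.

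Genes named in textbooks as AP-1 targets were divided. Of 14, 4 were above 100 TPM, 9 were below it and Mmp10 was listed at 0. Of the 9, Lif, Spp1 and Timp1 were no longer called without the variance trend (limma adjusted p = 0.0731, 0.0534 and 0.18). Haem oxygenase Hmox1 averaged 2907 ± 139 TPM, the hyaluronan receptor Cd44 763 ± 81.8 TPM, urokinase Plau 389 ± 61.1 TPM and its receptor Plaur 307 ± 63.6 TPM. The matrix metalloproteinases Mmp3, Mmp9 and Mmp13 each stayed below 7 TPM in every library. Of 16 other immediate-early genes, 9 were above 100 TPM, 5 below it, Ier3 was not called and Npas4, a neuronal gene, was listed at 0. Ier3 was called below 100 TPM without replicate 1 (limma adjusted p = 0.0266), and Nr4a3 lost its call below 100 TPM without the variance trend (adjusted p = 0.13) or replicate 2 (adjusted p = 0.087). The highest were Egr1 at 2326 ± 363 TPM, Myc at 1011 ± 69.4 TPM and the matricellular gene Cyr61 at 769 ± 94.9 TPM.

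**Figure D5:**
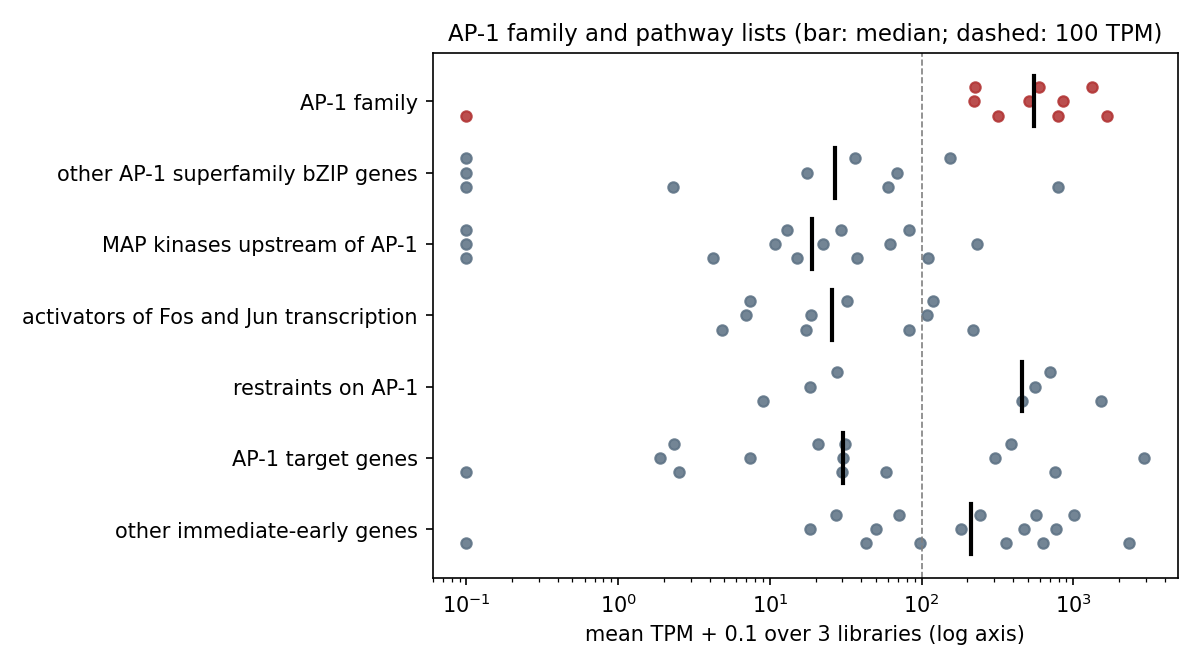
Mean TPM + 0.1 over the 3 libraries on a log axis for each gene (points) of the AP-1 family (red, top row) and 6 pathway lists (grey), with the list median as a bar and 100 TPM as a dashed line; points at 0.1 are genes listed at 0. The medians run at 552 TPM for the family and between 18.7 and 456 TPM for the 6 lists.

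The genes nearest to Fos in level and profile over the 3 libraries, among 11317 others of at least 1 TPM, were 1810011O10Rik (1572, 1122 and 1268 TPM; Euclidean distance 0.031 on the log2 scale), the ribosomal protein gene Rps19 (0.166) and the inducible chaperone Hspa1a (0.251). Those nearest to Jun were the splicing factor Srsf1 (0.197), Fau (0.222) and the chromatin protein Hmgb1 (0.258). With 3 libraries this measure mostly reflects like levels.

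The members' longest transcripts were nearly free of shared sequence. In GENCODE M21, 0.053% of the 31-base words of Fosb occurred in a transcript of another gene, and 0 of those of the other members. Exons of 4 members overlap a gene on the other strand, and the strand setting of the deposited counting is not given. Fosl1 shares 1163 of its 2033 exonic bases with Ccdc85b, which had 35.9, 1.26 and 59.3 TPM. Junb shares 173 bases with Prdx2, which averaged 92.3 ± 19.0 TPM. Jun overlaps Junos by 232 bases and Jund overlaps Gm11175 by 877, and neither of these RNAs has a row under that name. What these overlaps add to the members' values was not tested.

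The sorted cells carried satellite cell markers: all 8 listed were above 1 TPM, as were 60.8% of genes tested, and 5 were above 100 TPM, where 9.54% of genes tested were, with Pax7 (51.4 ± 5.22 TPM) below it and Myf5 and Cdh15 not called. Together Pax7, Myf5, Myod1, Cdh15, Itga7, Vcam1, Chodl and Des summed to between 3788 and 3951 TPM. Most of that sum came from Myod1 (1240 ± 74.5 TPM) and Des (1164 ± 17.9 TPM). Pax7, whose reporter was used in the sort, is no independent check. Markers of other cells were also present, summing to 1984 to 2156 TPM for 5 fibro-adipogenic genes, 1489 to 2764 TPM for 5 endothelial genes (chiefly Fabp4), 243 to 285 TPM for 7 leukocyte genes, 36.5 to 140 TPM for 4 mature fibre genes, 160 to 197 TPM for 4 pericyte and smooth muscle genes and 41.1 to 66.6 TPM for 3 Schwann cell genes. Above 100 TPM were 3 of the 5 fibro-adipogenic genes (Dpt at 572, Col3a1 at 585 and Gsn at 888 TPM on average), Fabp4 at 1898 TPM and the leukocyte gene Cd74 at 153 TPM. Among other markers of these lists, Cd3e was at 0 in all libraries, Pdgfra had 4.98, 0.11 and 0.06 TPM, Ptprc had 12.2, 15.4 and 2.18 TPM, and Pecam1 had 27.7, 32.5 and 61.2 TPM. AP-1 transcripts summed highest in replicate 1, as did the fibro-adipogenic markers, whose members did not share that order. Gsn (992, 888 and 784 TPM in replicates 1 to 3) and Pdgfra were highest in replicate 1. Col3a1 and Ly6a were highest in replicate 2 and Dpt in replicate 3. Satellite cell, leukocyte and Schwann cell markers summed highest in replicate 2. Endothelial, mature fibre, and pericyte and smooth muscle markers summed highest in replicate 3. The part of these cells, and of digestion and sorting, in the AP-1 levels was not tested.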

How the data were processed

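RNA was measured in 3 libraries of 1 group, assigned with their replicate numbers from the sample titles. The authors deposited TPM, renormalised without mitochondrial genes according to the name of their table, and each column sums to 999999.85 to 1000000.30. Per the submitters' processing notes, CASAVA 1.8, Bowtie 0.12.9 and RSEM 1.2.3 were used with the mm10 build. The role of each tool, the annotation and the strand setting were not given in the sources used here. TPM is a share of the genes in the table and keeps no depth, so no counting interval is given.

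Levels were tested on log2(TPM + 0.1), which understates folds of low genes, with limma 3.58.1 (R 4.3.3). One intercept fit over the 12822 genes above 0 in at least 1 library was tested against 1 TPM and against 100 TPM (two-sided, trended empirical Bayes, Benjamini-Hochberg over all genes, threshold 0.05). Tested on simulated data for the 100 TPM comparison over 12822 genes, it called 0% of 50 genes planted at 100 TPM above that level. It called above 100 TPM 96% of those planted at 1.5 times and 100% at 2 times that level. Calls below 100 TPM were not counted. Each planted gene was given the typical SD of its level, without the spread in SD between real genes. These rates may therefore be too favourable. Pairs were log2 ratios within a library with an exact sign-flip permutation test. Positions, overlaps and 31-base words are from GENCODE M21 (GRCm38, the assembly of mm10) and promoters from RefSeq. Alternatives were 2 pseudocounts, a filter at 1 TPM, median-ratio rescaling, no variance trend and leaving out each replicate.

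Members, lists, pairs and thresholds were chosen with earlier results of these data known. By rule the text names all members, both genes of each pair, the 3 highest genes of each list, the cell markers, and the 3 genes nearest to Fos and to Jun. The others (Batf2, Mapk8, the Mapk genes at 0, Srf, Creb1, Mef2a, Dusp1, Fbxw7, Plaur, Mmp3, Mmp9, Mmp10, Mmp13, Lif, Spp1, Timp1, Ier3, Nr4a3, Npas4, Rps27 and the overlapping genes) were chosen after their values were seen. Atf7 was not analysed here, and 1 gene that the rule names is not reported here.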

Additional observations from a re-analysis of the deposited data

How the results depend on the processing

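Of 302 values recomputed under the alternatives, 299 were rated the same and 0 reversed. Member levels had to keep their direction and call, and counts and the median SD to stay within 1.5 times. Sums and the subfamily ratio had to stay within 1 SD, and pairs only to keep their direction. Leaving out 1 library could not reverse a pair or move a sum by 1 SD, and rescaling cancels within a pair. Those ratings were fixed in advance. Calls of single pathway genes that changed are given beside those genes for the 100 TPM threshold. The 9 members stayed above 100 TPM under every alternative run. Without the variance trend their limma adjusted p-values were larger, between 0.00476 (Fosb) and 0.0191 (Fosl2). The count of genes above 100 TPM was 1223, with 951 when the variance trend was left out and 1189 to 1227 when 1 replicate was left out. The 3 that moved were the median SD of the members, 0.0968 without replicate 1 and 0.0939 without replicate 3 (between 0.0939 and 0.205 over the 3 replicates left out in turn), and the bZIP genes above 100 TPM, 1 instead of 2 without the variance trend. With 1 replicate left out, the mean AP-1 sum lay between 6304 and 6752 TPM and the log2 ratio of the Fos over the Jun subfamily between 1.30 and 1.33. No paired analysis was possible because the 3 libraries form 1 group. The number of libraries limits the precision, and a rise or fall of any member could not be tested.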

Other observations

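Small MAF proteins bind DNA mainly with CNC factors, so the levels of these partners were read after the levels of Maff and Mafk had been seen. Nfe2l2, which encodes the oxidative stress factor NRF2, had 127, 156 and 182 TPM. Bach1, which encodes the haem-sensitive repressor that competes with it, had 165, 175 and 171 TPM. Both were called above 100 TPM (limma, Benjamini-Hochberg over all genes tested), whereas Nfe2l1, at 111 ± 25.2 TPM, was not called. Whether the calls of these partner genes held under the alternatives was not checked. Bach2 averaged 9.37 ± 4.88 TPM and was below 100 TPM, and Nfe2 and Nfe2l3 were listed at 0 in all 3 libraries. Maff, at 861 ± 152 TPM, thus stood above each of these partners in every library.

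Genes known as NRF2 targets were read in the same way. Txnrd1, a thioredoxin reductase, averaged 2321 ± 147 TPM and Srxn1, which repairs oxidised peroxiredoxins, 1260 ± 88.2 TPM. The glutathione synthesis genes Gclm and Gclc averaged 241 ± 54.0 and 137 ± 14.6 TPM, and with Hmox1 these were 5 of 6 above 100 TPM, where 9.54% of all genes tested were called; the 6 were picked by hand after the MAF levels were seen. The exception was Nqo1, a quinone reductase, at 0, 2.65 and 3.01 TPM. Apart from Hmox1, whether the calls of these genes held under the alternatives was not checked. Whether NRF2 acted on these genes was not tested.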
